A study of Homo sapiens with 9 samples.

Results

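Homologous recombination repairs a broken chromosome by copying an intact sister sequence, and the Fanconi pathway uses the same machinery to restart replication where the strands of DNA are crosslinked. The Fanconi core complex, a ubiquitin ligase with FANCL as its catalytic subunit, attaches ubiquitin to the pair of FANCD2 and FANCI. Nucleases then open the lesion, BRCA1 and BRCA2 with their partners load the recombinase on single-stranded DNA, and the kinases ATM and ATR signal the damage. Inherited or acquired loss of several of these genes is known in ovarian carcinoma.

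The 47 genes described here are subunits, partners and signalling kinases of that pathway, taken by gene name. They were taken as the gene probes whose RefSeq transcript belongs to them, which gave 64 probes. Every one of the 47 genes passed the detection filter, out of 21832 genes and other transcript features tested, and the probe that stands for each was well above background on all 9 arrays. Levels were measured in A2780, a single established line of human ovarian carcinoma cells. The untreated group held 3 cultures without drug, and the labels name no vehicle. The other groups held 3 cultures each, kept for 24 h with DIG-MSK at 8 nM in one group and 80 nM in the other. Mithramycin A, the parent antibiotic of DIG-MSK, binds the minor groove of DNA rich in C and G. Among 7 markers of epithelial and ovarian carcinoma cells, KRT8, KRT18 and EPCAM were well above background on all 9 arrays, PAX8 on 3, and CDH1, WT1 and MUC16 on 0. The mesenchymal markers VIM and CDH2 were above background on all 9 arrays. Among leukocyte and endothelial markers, PTPRC was above background on all 9 arrays, CD3E and VWF on 3 each, and PECAM1 on 0. Each count is that of the best probe of the gene, and PTPRC has 4 probes. On the scale given below its mean levels were low, at -4.17 untreated, -4.90 at 8 nM and -4.37 at 80 nM.

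A level here is the log2 of the background-subtracted intensity of a probe minus the 75th percentile of its own array, and a change is a difference between group means on that scale. Levels of different genes come from different probes and are not set against each other. A gene was said to rise or fall where the adjusted p of limma (Benjamini-Hochberg over all 21832 genes) was under 0.05. The fold rule of the study's methods was counted beside it, namely a ratio of 1.5 or more, or of 0.67 or less, together with an unadjusted p under 0.05. Both drug groups were compared with the same 3 untreated arrays, so their changes share the error of those arrays. The untreated and 8 nM arrays lay on slide 1 and the 80 nM arrays on slide 2, which was scanned separately, so the effect of 80 nM and that of the slide cannot be told apart. Less RNA per cell and fewer cells with the RNA cannot be told apart either.

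At 8 nM, 9 of the 47 genes fell and 3 rose. Over all genes tested, 5.72% fell and 7.91% rose. The genes that fell were FANCC, FANCD2, BRIP1, RAD51B, XRCC2, XRCC3, MRE11, TOPBP1 and CHEK1, by between 0.34 and 0.77 on the log2 scale. ABRAXAS1, RAD51C and TP53BP1 rose, by 0.33, 0.37 and 0.30. The median change of the 47 genes was -0.19, beside -0.06 over all genes. Of the 47 estimates 32 were negative, beside 12700 of the 21832 over all genes. By the fold rule 4 were lower (FANCD2, BRIP1, BRCA2 and XRCC2) and 0 higher, where 2.84% and 4.25% of all genes were called. At an unadjusted limma p under 0.05, 23 were lower and 5 higher, where 16.3% and 14.5% of all genes were.

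The 8 nM result depended on single arrays. The median deviation of the 47 genes from the untreated mean was -0.25, -0.08 and -0.21 on the 8 nM arrays. The 8 nM replicate 2 array, the nearest to 0 by this median, also had the fewest probes above background (24814, beside 26008 and 26312). It was not the nearest for every gene. For BRIP1, XRCC2, RAD51B and TOPBP1 it was the lowest of the 8 nM arrays (-2.37, -0.92, -4.14 and -0.41). Without 8 nM replicate 2, 19 of the 47 genes fell and 4 rose, whereas without 8 nM replicate 3 or without untreated replicate 3 only 4 fell. The calls over all genes moved the same way, with 3906, 1917 and 1684 in these 3 fits beside 2974 in the main fit. Deviations from the group mean correlated only weakly between untreated and 8 nM arrays of the same replicate number (0.114, 0.101 and 0.163). With that number as a block 8 fell and 3 rose over all 9 arrays, with 2271 genes called in all. In a blocked fit of the untreated and 8 nM arrays alone, limma called 799 genes in all. Among the 47 it called 1 lower, BRIP1, and 0 higher, with 19 and 3 at an unadjusted p under 0.05. Scaled to the spike-in controls, 0 fell and 0 rose (limma, 3 and 0 at an unadjusted p under 0.05), and limma called 373 genes in all.

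At 80 nM, 19 of the 47 genes fell and 7 rose against untreated cells. Among all genes 25.7% fell and 33.3% rose. Those that rose were ATR, BARD1, MUS81, NBN, PALB2, RAD50 and TP53BP1, with changes between 0.23 and 0.98. Those that fell ranged from EME1, at -0.24, to MRE11, at -1.29. The median change of the 47 was -0.15, against 0.08 over all genes. By the fold rule 5 were lower (FANCF, FANCD2, ABRAXAS1, UIMC1 and MRE11) and 3 higher (BARD1, NBN and ATR), where 16.3% and 18.8% of all genes were called. At an unadjusted limma p under 0.05, 20 were lower and 7 higher, beside 27.6% and 35.8% of all genes. Of the 26 calls by adjusted p, 12 held under all 20 alternative settings and 19 under all but the scaling to spike-in controls. That scaling moved the median of all genes at 80 nM from 0.08 to -0.20, left BARD1 as the only gene called higher, with 14 lower, and turned the estimates of MUS81 and RAD50 to -0.05 and -0.02.

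**Figure D1:**
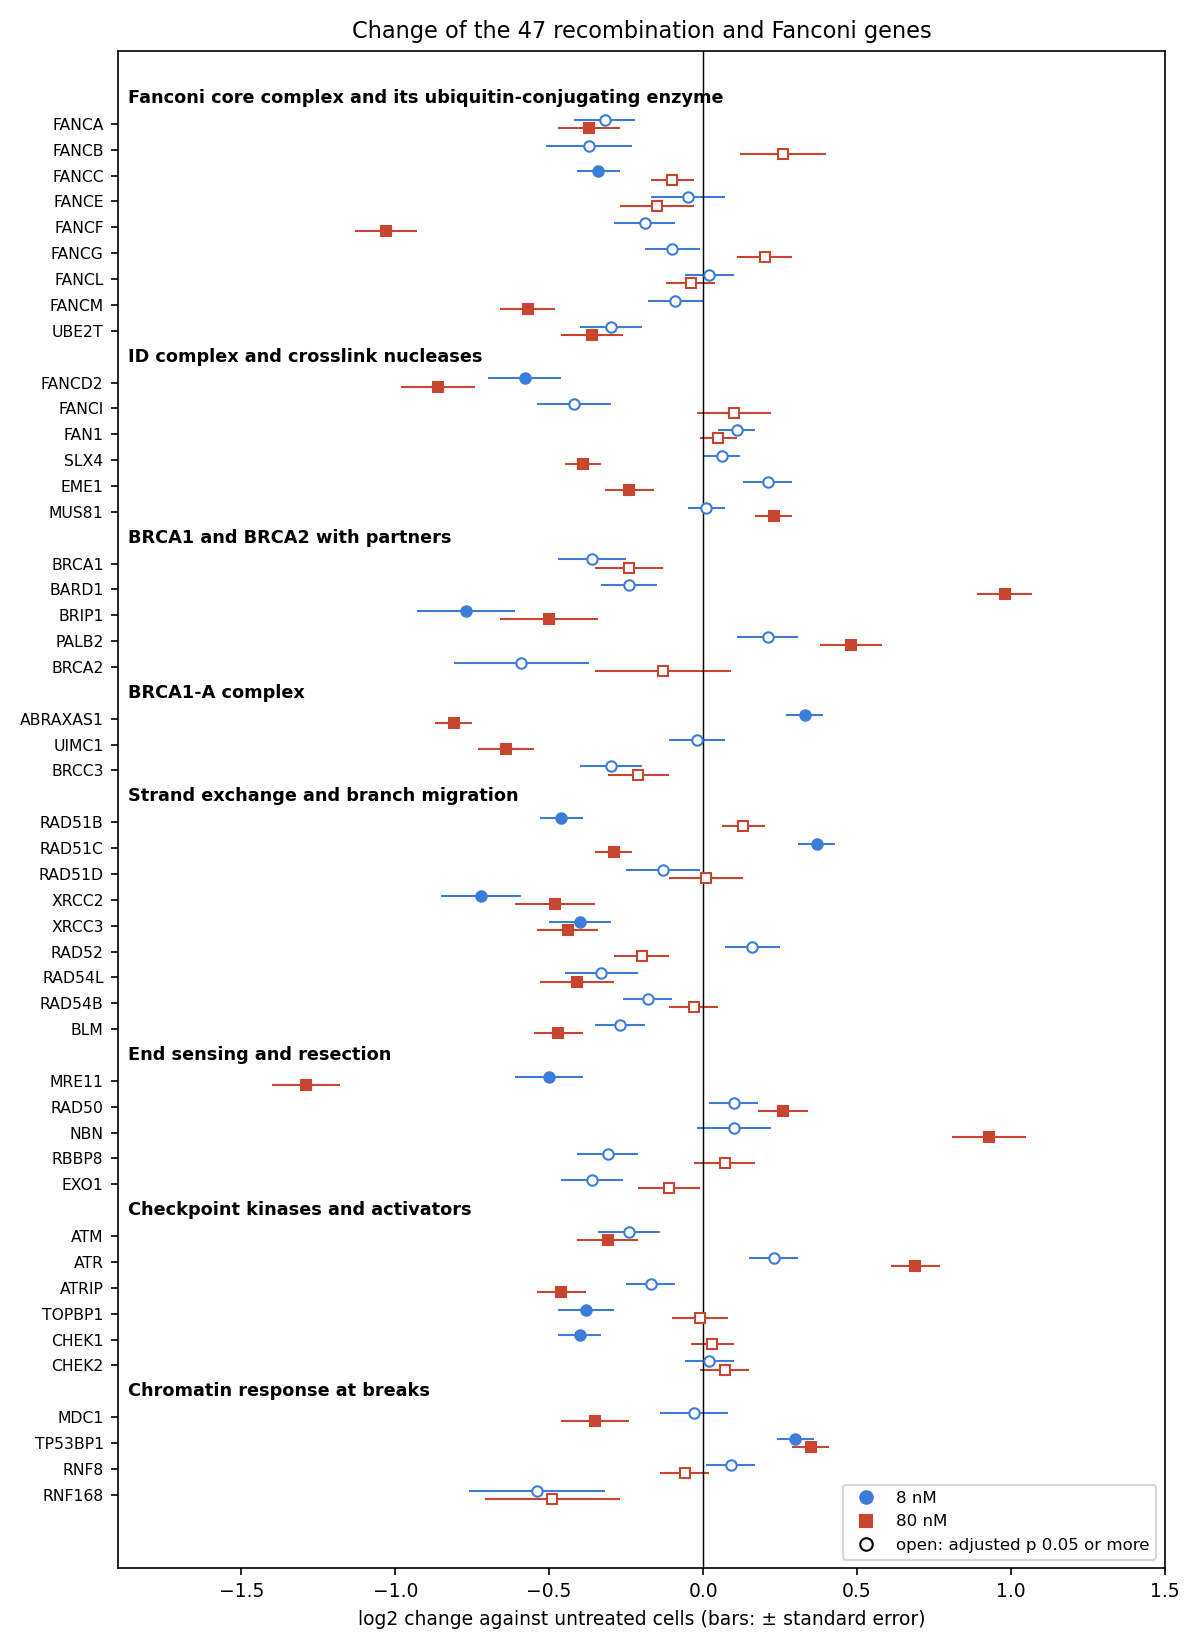
Log2 change of each of the 47 genes against untreated cells at 8 nM (circles) and 80 nM (squares), grouped by role, with bars of 1 standard error and open symbols where the limma adjusted p was 0.05 or more. MRE11, FANCF and FANCD2 lie farthest left at 80 nM and BARD1, NBN and ATR farthest right.

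Set directly against 8 nM, 80 nM gave 13 genes higher and 11 lower, where 34.6% and 22.9% of all genes were called. The median difference of the 47 was 0.05, and 0.12 over all genes. ABRAXAS1 and RAD51C rose at 8 nM and fell at 80 nM. MRE11 fell at both and lay lower at 80 nM than at 8 nM. CHEK1, FANCC, RAD51B and TOPBP1 fell at 8 nM, did not pass against untreated cells at 80 nM and were higher at 80 nM than at 8 nM. The main fit called 12565 genes in all in this comparison. Under the scaling to spike-in controls 1 of the 47 genes, BARD1, was higher and 11 were lower, with 6433 genes called in all. That scaling moved the median difference of all genes from 0.12 to -0.24. In the blocked fit of the 8 nM and 80 nM arrays alone 8 of the 47 were higher and 10 lower, with 10092 genes called in all. Deviations of same-number 8 nM and 80 nM arrays correlated at 0.016, -0.124 and -0.038. Over the 47 genes the median SD between the 3 arrays of a group was 0.059 untreated, 0.143 at 8 nM and 0.051 at 80 nM, and it was largest at 8 nM in 33 genes. The SD over all genes was not counted. Over all genes tested, array pairs correlated at 0.9891 to 0.9956 within 8 nM. These values were 0.9935 to 0.9957 within untreated and 0.9935 to 0.9947 within 80 nM.

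**Figure D2:**
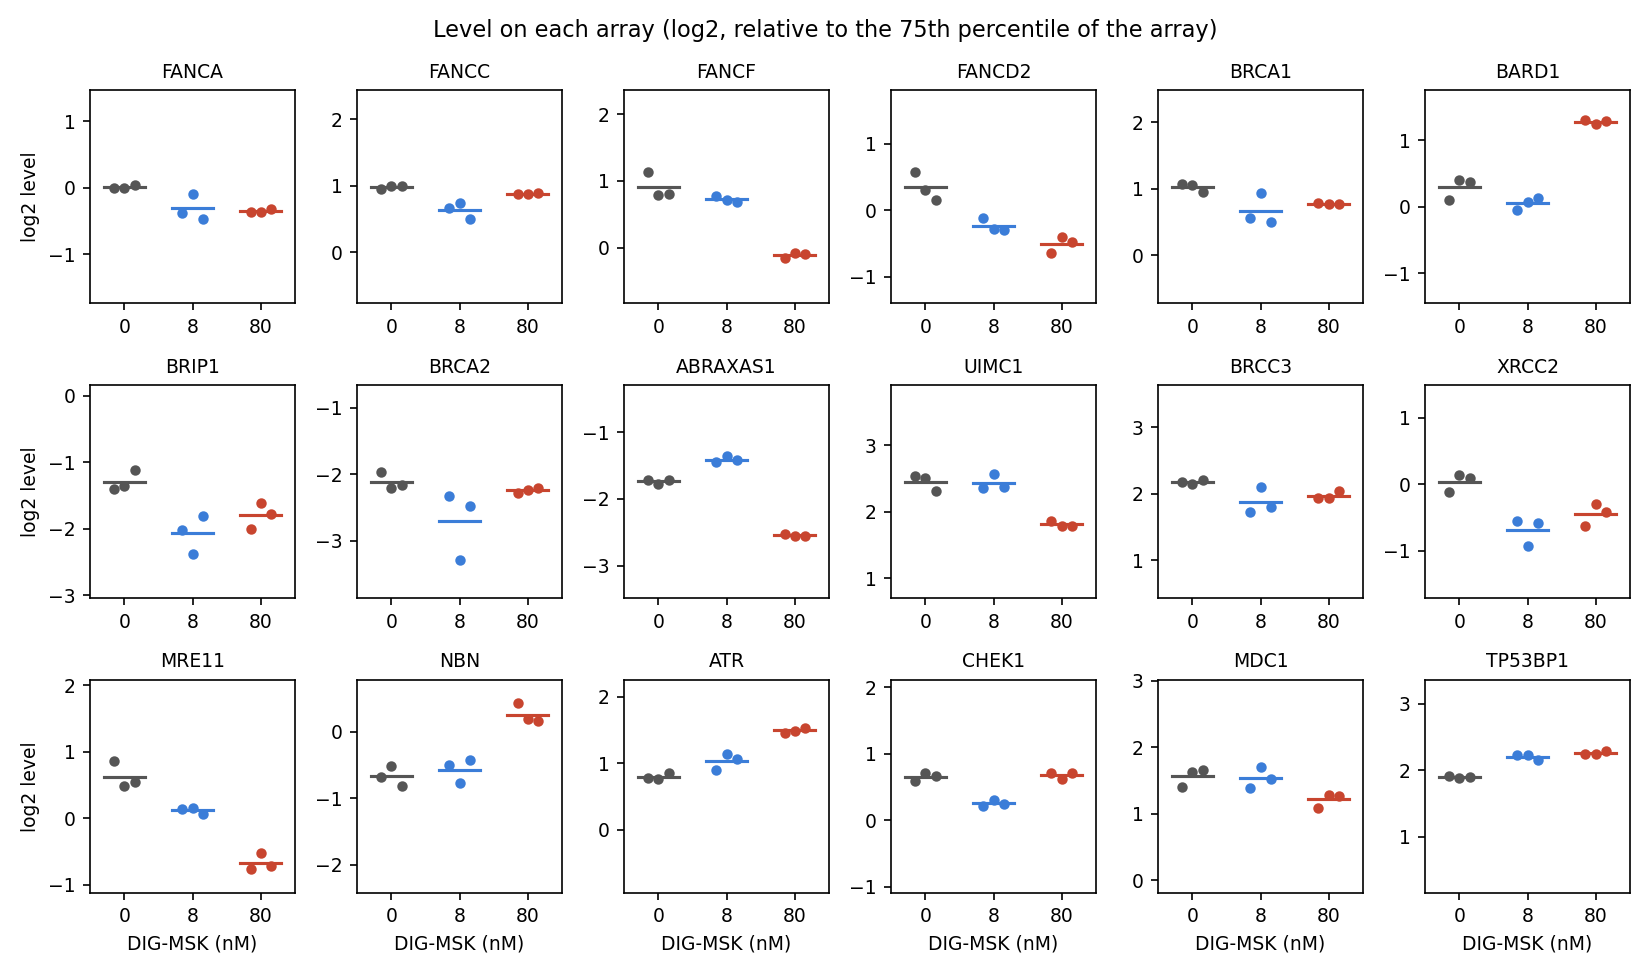
Level of 18 of the genes on each of the 9 arrays (points; log2 relative to the 75th percentile of the array) with the group mean (line), at 0, 8 and 80 nM DIG-MSK; every panel spans the same height. The 8 nM points of FANCA, BRCA1 and BRCA2 lie apart from each other, and the 80 nM points of BARD1, NBN and ATR lie above all others.

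In the Fanconi core complex, with its conjugating enzyme UBE2T, 4 of the 9 genes among the 47 fell at 80 nM (FANCA, FANCF, FANCM and UBE2T). None of the 9 rose, with 0 higher at an unadjusted limma p under 0.05. Over all genes 25.7% fell and 33.3% rose at 80 nM, with 35.8% higher at an unadjusted limma p under 0.05. Associated subunits outside the 47, named after their values were seen, went both ways, with FAAP24 at 0.63, FAAP20 at 0.06 and FAAP100 at -0.83 (limma adjusted p = 0.0017, 0.49 and 8.1e-05). Of the 9, only FANCC fell at 8 nM, where 5.72% of all genes fell. FANCA (NM_000135), a large scaffold subunit, was measured at 0.00, 0.00 and 0.04 in untreated cells, at -0.38, -0.09 and -0.47 after 8 nM and at -0.37, -0.37 and -0.32 after 80 nM. All treated arrays lay below the untreated ones, and the 8 nM replicate 2 array lay nearest to them. The changes were -0.32 at 8 nM (standard error 0.10, limma adjusted p = 0.066) and -0.37 at 80 nM (standard error 0.10, limma adjusted p = 0.013). Its other 2 probes gave -0.26 and -0.76 at 8 nM and -0.07 and -1.0 at 80 nM, of which the second passed at both concentrations (limma adjusted p = 0.029 and 0.0019).

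FANCC (NM_000136), which forms a subcomplex with FANCE and FANCF, lay at 0.95, 0.99 and 0.99 in untreated cells, at 0.67, 0.74 and 0.50 after 8 nM and at 0.87, 0.87 and 0.89 after 80 nM. The 8 nM arrays were below both other groups, without overlap. Its log2 changes were -0.34 at 8 nM (standard error 0.07, limma adjusted p = 0.02) and -0.10 at 80 nM (standard error 0.07, limma adjusted p = 0.27), and the difference between the concentrations was 0.24 (limma adjusted p = 0.024). The 8 nM call was lost when any 1 of the untreated arrays, or 8 nM replicate 3, was left out. FANCF (NM_022725), the adaptor of the subcomplex, was found at 1.14, 0.79 and 0.80 in untreated cells, at 0.77, 0.71 and 0.69 after 8 nM and at -0.16, -0.09 and -0.10 after 80 nM. The 80 nM arrays formed a group of their own, far below the rest. It changed by -0.19 at 8 nM (standard error 0.10, limma adjusted p = 0.24) and -1.03 at 80 nM (standard error 0.10, limma adjusted p = 5.2e-05), 2.04-fold lower at the higher concentration. A second probe of FANCF, on the same transcript, changed by 0.13 and -0.19 and did not pass at either concentration (limma adjusted p = 0.34 and 0.092).

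Of the other core genes, FANCM, the translocase that anchors the complex to DNA, fell by 0.57 at 80 nM (limma adjusted p = 0.00074). UBE2T fell by 0.36 (limma adjusted p = 0.018), a call lost without untreated replicate 2 or 80 nM replicate 3. FANCB and FANCG were higher at 80 nM than at 8 nM, by 0.63 and 0.30, and the second of these calls was lost under 6 of the 20 alternatives. FANCE had changes of -0.05 and -0.15, and the ligase subunit FANCL 0.02 and -0.04. Another FANCL probe rose by 0.21 at 80 nM (limma adjusted p = 0.031).

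FANCD2 (NM_001018115), the substrate of the core complex, was measured at 0.58, 0.30 and 0.16 in untreated cells, at -0.12, -0.28 and -0.30 after 8 nM and at -0.64, -0.40 and -0.48 after 80 nM. Every treated array lay below every untreated one, and the 80 nM arrays below the 8 nM arrays. Its changes were -0.58 at 8 nM (standard error 0.12, limma adjusted p = 0.017) and -0.86 at 80 nM (standard error 0.12, limma adjusted p = 0.00045), and the step from 8 to 80 nM was -0.28 (limma adjusted p = 0.081). The probe has 1 spot on the array, and the other FANCD2 probes gave -0.18 and -0.21 at 8 nM and -0.05 and -0.41 at 80 nM, of which only the last passed (limma adjusted p = 0.0045). The 8 nM call was lost without 8 nM replicate 3. FANCI, the partner that binds FANCD2, had an estimate of -0.42 at 8 nM (limma adjusted p = 0.061) and 0.10 at 80 nM, and was higher at 80 nM than at 8 nM by 0.52 (limma adjusted p = 0.0073). Among the nucleases, SLX4, the scaffold, fell by 0.39 at 80 nM (limma adjusted p = 0.00091). MUS81 and EME1, the subunits of a structure-specific endonuclease, moved in opposite directions at 80 nM, by 0.23 and -0.24 (limma adjusted p = 0.011 and 0.028). The EME1 call was lost under 8 of the 20 alternatives, among them each of the untreated arrays, 80 nM replicate 1 and 80 nM replicate 3 left out. FAN1 had changes of 0.11 and 0.05, neither past the threshold.

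BRCA1 (NM_007300), the ubiquitin ligase that promotes resection and recombination, lay at 1.07, 1.06 and 0.95 in untreated cells, at 0.56, 0.94 and 0.50 after 8 nM and at 0.79, 0.77 and 0.78 after 80 nM. Treated arrays were all below untreated ones, with 8 nM replicate 2 just under them. Its changes were -0.36 at 8 nM (standard error 0.11, limma adjusted p = 0.072) and -0.24 at 80 nM (standard error 0.11, limma adjusted p = 0.095), so neither passed. When 8 nM replicate 2 was left out they were -0.50 and -0.24 and passed at both concentrations (limma adjusted p = 0.0037 and 0.0072). BARD1 (NM_000465), the obligate partner of the BRCA1 ligase, was found at 0.11, 0.40 and 0.37 in untreated cells, at -0.04, 0.08 and 0.13 after 8 nM and at 1.30, 1.25 and 1.29 after 80 nM. All 80 nM arrays stood well above the other 6, while the untreated and 8 nM arrays overlapped. The log2 changes of BARD1 were -0.24 at 8 nM (standard error 0.09, limma adjusted p = 0.12) and 0.98 at 80 nM (standard error 0.09, limma adjusted p = 4.7e-05), 1.98-fold higher at 80 nM, and the call at 80 nM held in every alternative.

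BRIP1 (NM_032043), a helicase that binds BRCA1, was measured at -1.40, -1.36 and -1.12 in untreated cells, at -2.02, -2.37 and -1.80 after 8 nM and at -2.00, -1.61 and -1.78 after 80 nM. Both treated groups lay below the untreated arrays and overlapped each other. Its changes were -0.77 at 8 nM (standard error 0.16, limma adjusted p = 0.018) and -0.50 at 80 nM (standard error 0.16, limma adjusted p = 0.027). Both calls were lost without untreated replicate 3, and the second also without 80 nM replicate 1 or 80 nM replicate 3. BRCA2 (NM_000059), which loads the recombinase, was found at -1.96, -2.21 and -2.16 in untreated cells, at -2.33, -3.29 and -2.48 after 8 nM and at -2.28, -2.23 and -2.21 after 80 nM. The 8 nM arrays were below the untreated ones and spread widely, with replicate 2 far below the other two, and the 80 nM arrays overlapped the untreated group. It changed by -0.59 at 8 nM (standard error 0.22, limma adjusted p = 0.12) and -0.13 at 80 nM (standard error 0.22, limma adjusted p = 0.64), past the fold rule but not the adjusted threshold at 8 nM. PALB2, the link between BRCA1 and BRCA2, rose by 0.48 at 80 nM (limma adjusted p = 0.0029).

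The BRCA1-A complex holds BRCA1 at ubiquitin chains near breaks. At 80 nM 2 of its 3 genes among the 47 fell, where 25.7% of all genes fell. Its subunits outside the 47, named after their values were seen, did not fall, with BABAM2 at 0.43 and BABAM1 at 0.07 (limma adjusted p = 0.004 and 0.48). ABRAXAS1 (NM_139076), its scaffold, lay at -1.72, -1.78 and -1.71 in untreated cells, at -1.45, -1.36 and -1.41 after 8 nM and at -2.53, -2.55 and -2.55 after 80 nM. The groups were fully separate, with 8 nM highest and 80 nM lowest. ABRAXAS1 changed by 0.33 at 8 nM (standard error 0.06, limma adjusted p = 0.011) and -0.81 at 80 nM (standard error 0.06, limma adjusted p = 1.4e-05), and the difference between the concentrations was -1.14 (limma adjusted p = 2.1e-06). The rise at 8 nM was lost under 4 of the 20 alternatives, while the fall at 80 nM held in every alternative. UIMC1 (NM_016290), the ubiquitin-binding subunit also called RAP80, was measured at 2.53, 2.51 and 2.31 in untreated cells, at 2.35, 2.56 and 2.37 after 8 nM and at 1.86, 1.79 and 1.78 after 80 nM. Untreated and 8 nM arrays overlapped, and the 80 nM arrays were below both. Its changes were -0.02 at 8 nM (standard error 0.09, limma adjusted p = 0.9) and -0.64 at 80 nM (standard error 0.09, limma adjusted p = 0.00042). BRCC3 (NM_001018055), the deubiquitinase, was found at 2.17, 2.15 and 2.20 in untreated cells, at 1.72, 2.10 and 1.80 after 8 nM and at 1.93, 1.94 and 2.04 after 80 nM. Its treated arrays were all below the untreated ones, again with 8 nM replicate 2 nearest. Its changes, -0.30 at 8 nM (standard error 0.10, limma adjusted p = 0.087) and -0.21 at 80 nM (standard error 0.10, limma adjusted p = 0.11), did not pass. The other BRCC3 probes gave -0.35 and -0.63 at 8 nM (limma adjusted p = 0.024 and 0.035) and -0.19 and -0.99 at 80 nM (limma adjusted p = 0.064 and 0.0009).

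Among the 9 genes of strand exchange and branch migration, 5 fell at 80 nM and 0 rose, beside 25.7% and 33.3% of all genes. At an unadjusted limma p under 0.05 also 0 were higher, beside 35.8% of all genes. XRCC2 (NM_005431), a paralogue of the recombinase, was measured at -0.11, 0.14 and 0.09 in untreated cells, at -0.55, -0.92 and -0.58 after 8 nM and at -0.62, -0.29 and -0.42 after 80 nM. Both treated groups lay below the untreated arrays. The changes of XRCC2 were -0.72 at 8 nM (standard error 0.13, limma adjusted p = 0.0099) and -0.48 at 80 nM (standard error 0.13, limma adjusted p = 0.013). Among its relatives, XRCC3 changed by -0.40 and -0.44 (limma adjusted p = 0.032 and 0.0054), RAD51B by -0.46 and 0.13 (limma adjusted p = 0.0044 and 0.14), and RAD51D by -0.13 and 0.01, not past the threshold. The XRCC3 call at 8 nM was lost under 9 of the 20 alternatives, among them each of the untreated arrays, 8 nM replicate 1 and 8 nM replicate 3 left out. RAD51C (NM_002876), shown array by array after its values were seen, lay at 2.25, 2.24 and 2.14 in untreated cells, at 2.53, 2.63 and 2.60 after 8 nM and at 1.95, 1.90 and 1.92 after 80 nM. Like ABRAXAS1 its groups were fully separate, highest at 8 nM and lowest at 80 nM. It changed by 0.37 at 8 nM (standard error 0.06, limma adjusted p = 0.0083) and -0.29 at 80 nM (standard error 0.06, limma adjusted p = 0.0053). BLM, a helicase that unwinds joined molecules, and RAD54L, a translocase, fell at 80 nM by 0.47 and 0.41 (limma adjusted p = 0.0015 and 0.016), the latter lost without 80 nM replicate 1. RAD52, which anneals strands, was lower at 80 nM than at 8 nM by 0.36 (limma adjusted p = 0.0072). RAD54B changed by -0.18 and -0.03, but a dimmer probe of it fell by 0.94 at 80 nM (limma adjusted p = 0.00039).

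MRE11, RAD50 and NBN form the complex that senses and trims broken ends, and they did not move together. MRE11 (NM_005590), the nuclease, was found at 0.86, 0.48 and 0.54 in untreated cells, at 0.14, 0.16 and 0.07 after 8 nM and at -0.76, -0.52 and -0.72 after 80 nM. The groups were separate and stepped down from untreated to 8 nM to 80 nM. MRE11 changed by -0.50 at 8 nM (standard error 0.11, limma adjusted p = 0.024) and -1.29 at 80 nM (standard error 0.11, limma adjusted p = 3.2e-05), 2.45-fold lower at 80 nM, the largest change of the 47 genes. The 8 nM call was lost with the replicate block (limma adjusted p = 0.052), and without untreated replicate 3 or 8 nM replicate 3. NBN (NM_002485), which recruits ATM, was measured at -0.68, -0.52 and -0.81 in untreated cells, at -0.50, -0.77 and -0.43 after 8 nM and at 0.43, 0.19 and 0.16 after 80 nM. The 80 nM arrays were above all others, and untreated and 8 nM arrays overlapped. NBN changed by 0.10 at 8 nM (standard error 0.12, limma adjusted p = 0.59) and 0.93 at 80 nM (standard error 0.12, limma adjusted p = 0.00031), 1.91-fold higher at 80 nM. RAD50, the ATPase, rose by 0.26 at 80 nM (limma adjusted p = 0.027), a call lost under 8 of the 20 alternatives. RBBP8, also called CtIP, and the exonuclease EXO1 had estimates of -0.31 and -0.36 at 8 nM (limma adjusted p = 0.08 and 0.051) and of 0.07 and -0.11 at 80 nM.

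ATR (NM_001184), the kinase activated by single-stranded DNA, was measured at 0.78, 0.76 and 0.85 in untreated cells, at 0.89, 1.13 and 1.06 after 8 nM and at 1.46, 1.49 and 1.53 after 80 nM. The groups were separate, with untreated lowest and 80 nM highest. ATR changed by 0.23 at 8 nM (standard error 0.08, limma adjusted p = 0.092) and 0.69 at 80 nM (standard error 0.08, limma adjusted p = 0.00013), and a second probe gave -0.11 and 0.47 (limma adjusted p = 0.67 and 0.038). ATRIP, which tethers ATR, fell by 0.46 at 80 nM (limma adjusted p = 0.0017). CHEK1 (NM_001114121), the kinase downstream of ATR, lay at 0.59, 0.71 and 0.67 in untreated cells, at 0.22, 0.30 and 0.25 after 8 nM and at 0.71, 0.62 and 0.71 after 80 nM. The 8 nM arrays were below both other groups, which overlapped. Its changes were -0.40 at 8 nM (standard error 0.07, limma adjusted p = 0.0074) and 0.03 at 80 nM (standard error 0.07, limma adjusted p = 0.76), and the difference between the concentrations was 0.42 (limma adjusted p = 0.00087). TOPBP1, the activator of ATR, was also lowest at 8 nM, with changes of -0.38 and -0.01 (limma adjusted p = 0.028 and 0.93). Its 8 nM call was lost under 8 of the 20 alternatives, among them each of the untreated arrays and 8 nM replicate 3 left out. CHEK2 changed by 0.02 and 0.07, while another of its probes fell by 0.55 at 80 nM (limma adjusted p = 0.0088). For ATM the sign depended on the probe. The brighter probe changed by -0.31 at 80 nM (limma adjusted p = 0.03) and the dimmer, with 10 spots against 2, by 1.13 (limma adjusted p = 4.4e-05), both on transcript NM_000051. The call of the brighter probe was lost under 7 of the 20 alternatives, among them untreated replicate 1, untreated replicate 3, 80 nM replicate 1 and 80 nM replicate 3 left out.

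Of the genes that mark chromatin at breaks, TP53BP1 (NM_005657), which restrains resection, was measured at 1.92, 1.89 and 1.90 in untreated cells, at 2.23, 2.23 and 2.16 after 8 nM and at 2.24, 2.24 and 2.29 after 80 nM. All treated arrays lay above the untreated ones. Its changes were 0.30 at 8 nM (standard error 0.06, limma adjusted p = 0.015) and 0.35 at 80 nM (standard error 0.06, limma adjusted p = 0.0013). The rise at 8 nM was lost without untreated replicate 2 or untreated replicate 3. MDC1 (NM_014641), the scaffold bound to marked histones, was found at 1.40, 1.63 and 1.66 in untreated cells, at 1.38, 1.70 and 1.52 after 8 nM and at 1.09, 1.28 and 1.27 after 80 nM. The 80 nM arrays were below all others, and the untreated and 8 nM arrays overlapped. MDC1 changed by -0.03 at 8 nM (standard error 0.11, limma adjusted p = 0.88) and -0.35 at 80 nM (standard error 0.11, limma adjusted p = 0.024), and the latter was lost without untreated replicate 2, untreated replicate 3 or 80 nM replicate 1. The ubiquitin ligases RNF8 and RNF168 had changes of 0.09 and -0.54 at 8 nM and -0.06 and -0.49 at 80 nM, none past the threshold, with an SD of up to 0.47 for RNF168.

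**Figure D3:**
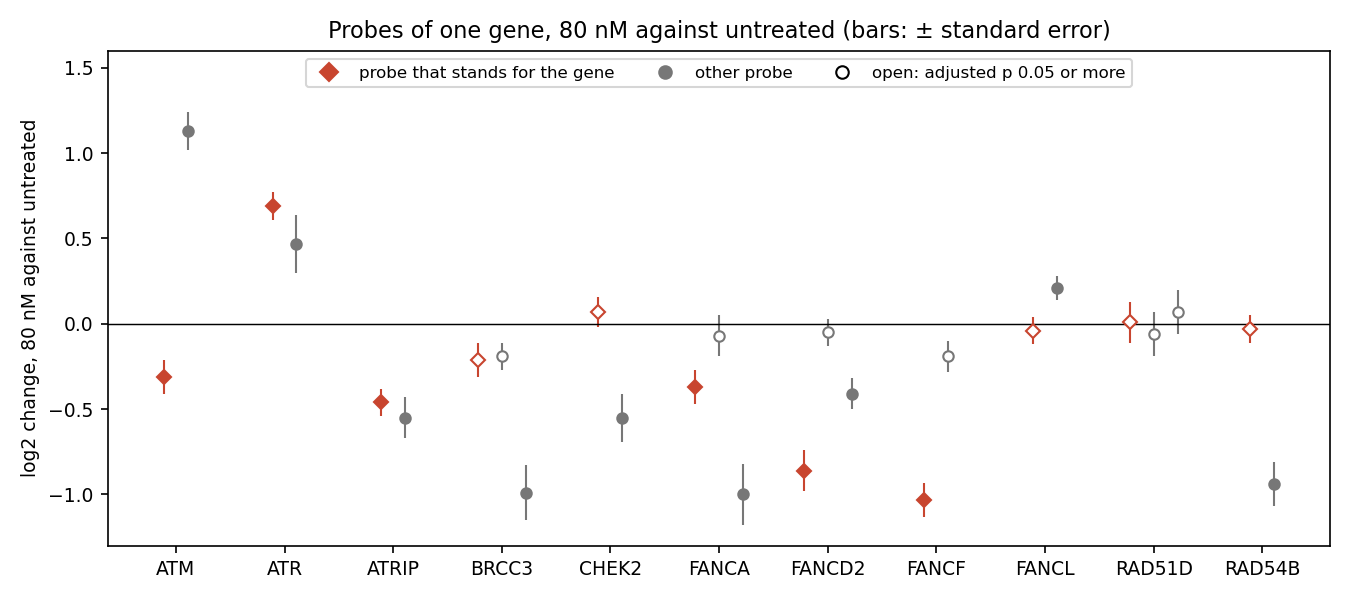
Log2 change at 80 nM against untreated cells for each probe of the 11 genes with several probes past the filter (bars: 1 standard error; diamonds: the probe that stands for the gene; open: limma adjusted p of 0.05 or more). The 2 probes of ATM lie on opposite sides of 0, and those of FANCF, FANCD2, FANCA, BRCC3 and RAD54B lie far apart.

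Of the 47 genes, 11 had several probes past the filter. In 8 of these the probes disagreed on the call at 80 nM, and in 4 on the sign. Adjusted p values of other probes of a gene are over all probes past the filter. Which transcript forms each probe measures was not examined here.

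Other genes of the pathway and of its rival route were counted as well. Of 55 other Fanconi and recombination genes, 6 fell (10.9%) and 2 rose (3.64%) at 8 nM, beside 5.72% and 7.91% of all genes. Their median change was -0.09, and -0.06 over all genes. The falls were 3 without untreated replicate 3, 10 without 8 nM replicate 2, 3 with the replicate block and 1 in the blocked fit of the untreated and 8 nM arrays alone, and none passed with spike-in scaling. At 80 nM 21 of the 55 rose (38.2%) and 11 fell (20%), near the 33.3% and 25.7% of all genes. The median of the 55 was 0.07, beside 0.08 over all genes. The largest rises of the 55 were those of SWSAP1, a partner in a recombinase-binding complex, and the helicase HELQ, with changes of 1.20 and 1.00 (limma adjusted p = 8.6e-05 and 4.7e-05). The largest falls were those of CLSPN, the claspin that links ATR to CHEK1, and the core subunit FAAP100, at -1.71 and -0.83 (limma adjusted p = 8.5e-06 and 8.1e-05). With arrays scaled to spike-in controls 2 of the 55 rose and 11 fell at 80 nM. Of 9 end joining genes tested, the competing repair route, 2 rose at 80 nM, PRKDC by 0.80 and XRCC5 by 0.39 (limma adjusted p = 0.00078 and 0.0034). The other 3 called were lower, led by POLM at -1.03 and XRCC6 at -0.35 (limma adjusted p = 3.1e-05 and 0.0093).

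Many recombination genes are known to be transcribed mainly in S phase, so genes of DNA replication and proliferation were set beside them. At 8 nM, where 5.72% of all genes fell and 7.91% rose, 17 of 25 such genes fell. None of the 25 rose (limma, also 0 at an unadjusted p under 0.05 and by the fold rule), and their median change was -0.41. Their median deviation was -0.44, -0.27 and -0.43 on the 8 nM arrays, smallest on replicate 2 as for the 47 genes. The falls were 9 without untreated replicate 2, 7 without untreated replicate 3, 11 without 8 nM replicate 1 and 9 without 8 nM replicate 3. They were 13 with the replicate block, 6 with only the untreated and 8 nM arrays and 1 in the blocked fit of those arrays, and with spike-in scaling the median was -0.33 and none passed. At 80 nM, where 25.7% of all genes fell and 33.3% rose, 5 of the 25 fell and 6 rose, with a median of -0.03. The largest rises were those of CDK1, the mitotic kinase, and the cyclin CCNE2, at 1.13 and 1.07 (limma adjusted p = 2.8e-06 and 6.4e-06), and the largest falls those of the helicase subunit MCM5 and of MKI67, at -0.93 and -0.81 (limma adjusted p = 0.00012 and 0.0023). Their part in the values of the 47 genes was not tested.

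**Figure D4:**
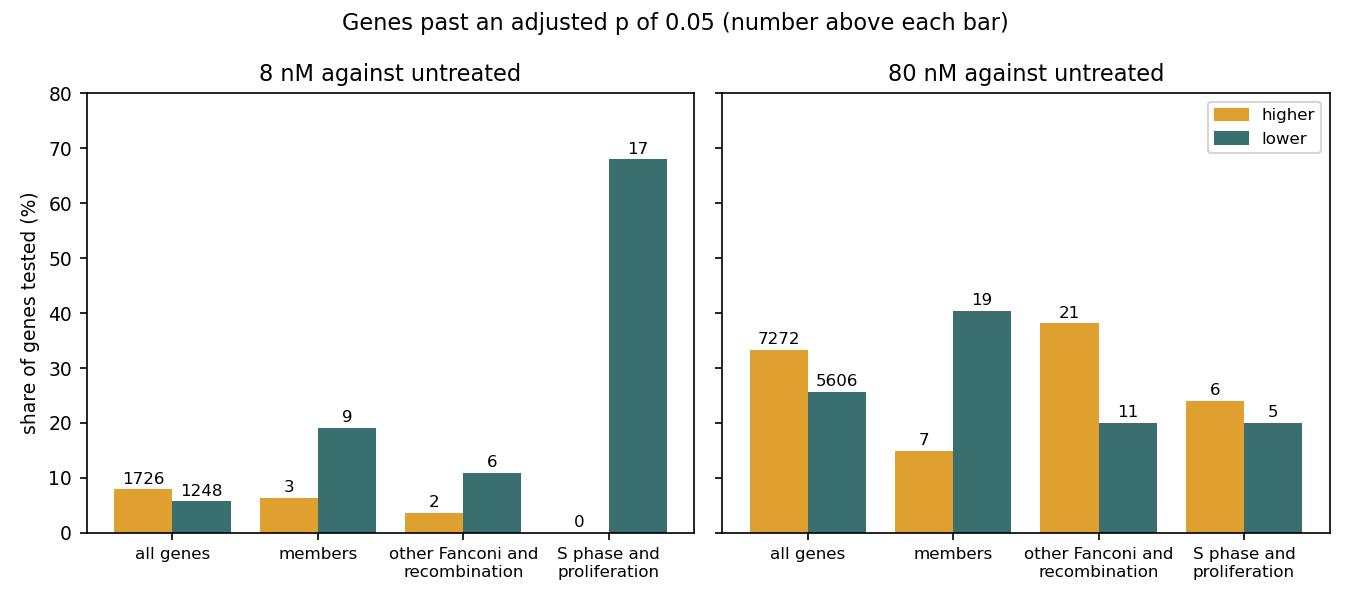
Share of genes (percent of those tested, axes from 0) that were higher or lower at a limma adjusted p under 0.05 among all 21832 genes, the 47 genes described here, 55 other Fanconi and recombination genes and 25 S phase and proliferation genes, with the number of genes above each bar. At 8 nM 19.1% of the 47 were lower, and 68% of the S phase genes; at 80 nM 40.4% of the 47 were lower and 14.9% higher.

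Promoters of the 47 genes were searched for letters bound by the E2F factors of S phase, since S phase genes fell at 8 nM, and for the GC box of the Sp1 family, since mithramycins bind C/G-rich DNA. The letters CCAAT, bound by NF-Y, were searched as well. RefSeq promoters on GRCh38.p14, from 250 bases before to 50 after a start, were given for 44 of the 47 genes, 60 promoters in all. The E2F letters TTTGGCGC, TTTCGCGC or TTTCCCGC stood on either strand in 5 of the 60, or 8.33%, beside 3.94% of the promoters of tested genes and 2.74% of all promoters. The genes were FANCC, FANCD2, XRCC2, TOPBP1 and EXO1. Counted per gene, a match stood in 4 of the 9 that fell at 8 nM and in 0 of the 3 that rose. Of the 32 not called that have a promoter, 1 had a match, EXO1. The 8 nM calls of FANCC and TOPBP1 were each kept under 12 of the 20 alternatives. Whether E2F factors had a part in these changes was not tested. Among all tested genes with a promoter the E2F letters stood in 10.1% of those that fell at 8 nM, 5.16% of those not called and 3.4% of those that rose. These 3 shares are per gene, over any of its promoters, unlike the shares of promoters above. The matches are shown with 10 bases on each side, 5′ to 3′ on the strand of the gene, with the matched letters in capitals.
FANCC, chr9:95317738-95317765, minus strand: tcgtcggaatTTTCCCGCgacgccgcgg
FANCD2, chr3:10026425-10026452, plus strand: gtcgggcctgGCGGGAAAgtcgaaaact
XRCC2, chr7:152676103-152676130, minus strand: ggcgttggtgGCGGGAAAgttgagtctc
TOPBP1, chr3:133661931-133661958, minus strand: cgcgcggttgGCGCGAAAgtcggttccc
EXO1, chr1:241848198-241848225, plus strand: aaggtcagccTTTCGCGCgctgtgtagg
The match in FANCC shown is the nearer of 2 to the start, and the one in FANCD2 spans the start.

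The GC box GGGCGG, on either strand, stood in 42 of the 60 promoters, or 70%, beside 63.5% of the promoters of tested genes and 45% of all. It was found in 14 of the 19 genes that fell at 80 nM, in 5 of the 6 that rose and have a promoter, and in 15 of the 19 not called. Over all tested genes the shares, counted per gene over any of its promoters, were 73.9%, 74.5% and 72.8%. CCAAT stood on either strand in 24 of the 60 promoters, or 40%, beside 35% of the promoters of tested genes and 34.6% of all. It was found in 12 of the 19 genes that fell at 80 nM, in 3 of the 6 that rose and in 4 of the 19 not called. Its shares by call over all tested genes were not counted, and its part in the changes was not tested. The 250 bases before the start are shown for MRE11, which fell most and has 2 GC boxes, for BARD1, which rose most and has 5, and for FANCM, which fell and has 0. Capitals mark the GC boxes, and the sequences run 5′ to 3′ on the strand of the gene.
MRE11, chr11:94493845-94494094, minus strand: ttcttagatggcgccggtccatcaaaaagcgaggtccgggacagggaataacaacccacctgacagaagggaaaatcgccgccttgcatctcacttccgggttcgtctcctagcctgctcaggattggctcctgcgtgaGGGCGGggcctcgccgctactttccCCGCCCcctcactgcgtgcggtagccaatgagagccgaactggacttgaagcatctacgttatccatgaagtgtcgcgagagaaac
BARD1, chr2:214809684-214809933, minus strand: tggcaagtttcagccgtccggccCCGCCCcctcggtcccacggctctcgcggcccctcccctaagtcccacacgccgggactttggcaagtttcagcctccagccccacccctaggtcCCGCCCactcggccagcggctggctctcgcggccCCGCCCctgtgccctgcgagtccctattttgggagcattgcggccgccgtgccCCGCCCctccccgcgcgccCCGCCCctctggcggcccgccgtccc
FANCM, chr14:45135680-45135929, plus strand: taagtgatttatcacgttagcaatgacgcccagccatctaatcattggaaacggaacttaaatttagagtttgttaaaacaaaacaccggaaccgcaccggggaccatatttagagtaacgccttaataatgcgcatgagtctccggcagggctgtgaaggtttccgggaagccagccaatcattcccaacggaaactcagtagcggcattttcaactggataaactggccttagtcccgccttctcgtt
A match of letters describes the sequence and is not a measured binding site.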

How the data were processed

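RNA of 9 A2780 cultures, 3 untreated, 3 at 8 nM and 3 at 80 nM DIG-MSK for 24 h, was hybridized to 1-colour Agilent arrays. Groups and replicate numbers came from the labels, and the study's methods call the cultures independent biological replicates. The study names the Low Input Quick Amp kit, whereas the labels name another kit. Per the file headers and the submitters' processing notes the authors extracted spot intensity with Agilent Feature Extraction 10.7.3.1. In these deposited files the background has been taken off each intensity, and arrays are not scaled to each other. The authors also deposited log2 values per probe, with median between 6.45 and 6.53 on the 9 arrays, whose scale follows quantile normalization. They were used as an alternative only. The lowess step named by the study has no second channel here and was not applied.

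Control and outlier spots were left out, spots of a probe were averaged as log2, and the 75th percentile of each array (processed intensity 831.7 to 1170) was subtracted. No gene spot was saturated. A probe was kept where some group had it well above background on each of its 3 arrays, and the probe with the highest mean stood for its gene. Probes were named through RefSeq genes on GRCh38.p14, for 25715 of 27245 RefSeq accessions. R 4.3.3 with limma 3.58.1 (lmFit, contrasts, eBayes) was fitted to all 9 arrays and 21832 genes, with Benjamini-Hochberg adjustment. The procedure was tested on simulated data. With 3 arrays in a group, their number sets the precision.

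Array values are given for every gene past the fold rule against untreated cells, for the largest change past the adjusted threshold in each role at each concentration, and for FANCA, BRCA1, BRCA2 and BRCC3. In the other lists the 2 largest changes each way at 80 nM are named. The 47 genes and the lists were chosen with earlier results of these data known. One of the leukocyte markers is not reported here.

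Deviations from the group mean correlated across genes at 0.114, 0.101 and 0.163 between untreated and 8 nM arrays of the same replicate number. With different numbers these groups gave -0.124 to -0.003. However, 8 nM and 80 nM arrays of different numbers reached 0.118 and 0.125, so the correlations do not establish a pairing. The block was run as an alternative only, on the evidence of the data alone. For 80 nM the same-number correlations lay between -0.124 and 0.016. The alternatives were normexp (offset 50), quantile, median and spike-in scaling, the deposited log2 values, no filter, the mean of probes, a filter asking for all 9 arrays, only the groups compared, the replicate block, and each array left out. Normexp was run on median spot signals, since no mean signals were used here, and a blocked fit of only the groups compared was added; both were chosen after seeing the data.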

Additional observations from a re-analysis of the deposited data

How the results depend on the processing

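Of the counts, 138 of 160 values under alternatives stayed within 1.5 times the count reported. At 8 nM the number of genes lower was 14 with the deposited log2 values, 5 without a filter on dim probes, 5 with only the groups compared, 1 in the blocked fit of those groups and 0 with spike-in scaling, and ranged from 4 to 19 with each array left out. The number higher at 8 nM was 1 with median scaling or only the groups compared, and 0 in the blocked fit of those groups or with spike-in scaling. The number past the fold rule at 8 nM was 2 with the deposited values, normexp, quantile or spike-in scaling, and ranged from 2 to 5 with each array left out. At 80 nM against untreated cells, spike-in scaling gave 1 higher and 20 past the fold rule, with 6873 genes called in all by adjusted p. Against 8 nM it gave 1 higher, with 6433 called in all, and the blocked fit of the groups compared gave 8 higher, with 10092. The replicate block over all 9 arrays ended 1 call among the 47 genes, MRE11 at 8 nM (-0.50, limma adjusted p = 0.052), and changed no other. Some of these settings use fewer arrays or test more genes, and the cause of these differences was not tested.

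Among the 18 genes shown, reversed estimates were of changes that did not pass, except FANCC at 80 nM minus 8 nM (-0.12 with spike-in scaling). FANCG, MUS81 and PALB2 also turned there under that scaling, and ATM at 80 nM turned to 0.41 with the mean of probes. At 8 nM MDC1 gave 0.01 with the deposited values, 0.00 with quantile normalization, 0.05 with spike-in scaling, 0.05 without 8 nM replicate 1, 0.00 without untreated replicate 2 and 0.02 without untreated replicate 3, in a range of -0.11 to 0.05 with each array left out. UIMC1 gave 0.03, 0.04 and 0.06 in the first 3 of these settings, and 0.01 to 0.02 with an array left out (0.02 without 8 nM replicate 1 or untreated replicate 1, 0.01 without 8 nM replicate 3 or untreated replicate 2). CHEK1 at 80 nM gave -0.25 with spike-in scaling and -0.01 without untreated replicate 1. For 80 nM minus 8 nM, TP53BP1 gave -0.01 with the deposited values, -0.02 with quantile normalization and -0.31 with spike-in scaling, BRCC3 -0.04 with the mean of probes and -0.26 with spike-in scaling, FANCA 0.07 without 8 nM replicate 2, and with spike-in scaling BRCA1 gave -0.24, BRIP1 -0.09 and XRCC2 -0.12.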
